A study of Homo sapiens with 4 samples.

Results

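The annexin family was followed in PC3, a long-established cell line from a bone metastasis of human prostate cancer. The members were chosen by family name from the deposited gene count table, and the family was taken up because ANXA10 had one of the largest fold changes between the groups of this series. They are ANXA1, ANXA2, ANXA3, ANXA4, ANXA5, ANXA6, ANXA7, ANXA8, ANXA10 and ANXA11, 10 of the 60544 genes in the table. The values of ANXA10 in this contrast are therefore given as a description with no test. Of the 10 genes, 9 passed the filter on low counts and were among the 16802 genes tested, and ANXA8 did not pass it.

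Poly(A) RNA was sequenced in 4 libraries, 2 from PC3 cells carrying the control hairpin labelled shNC and 2 from PC3 cells carrying the hairpin labelled sh812. All 4 were grown in RPMI-1640 with fetal bovine serum, and no time after transduction is given. The series is described as a comparison of METTL3 knockdown with control, and sh812, the remaining label, was taken for the knockdown. METTL3 carries the methyltransferase activity that places N6-methyladenosine on messenger RNA. A single hairpin stands for the knockdown, so the loss of METTL3 and any other action of that hairpin cannot be told apart. The labels do not say whether the replicates came from separate cultures, so p-values measure the spread between these libraries, which may be technical.

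Total counts ranged from 31450648 to 37041330 per library. Scaled to a common library size (CPM), METTL3 stood at 44.3 and 43.6 CPM in shNC and at 7.66 and 8.75 CPM in sh812, a log2 fold change of -2.42 (adjusted p = 5.54e-14 in edgeR). The 5 epithelial markers KRT8, KRT18, KRT19, EPCAM and CDH1 summed to 816 to 921 CPM in shNC and 956 to 1017 CPM in sh812. Of these, 3 (KRT18, EPCAM and CDH1) were higher in sh812 by the test used below, as were 5.43% of all genes tested. KLK2 and KLK3, secreted products of luminal prostate epithelium, were at 0 counts in every library. The 5 leukocyte markers summed to 0.627 to 1.11 CPM over the 4 libraries, with CD3E at 0 in each. The 5 fibroblast markers summed to 51.9 and 53.2 CPM in shNC and 47.2 and 54.3 CPM in sh812, led by COL1A1 and COL1A2. COL1A2 was called higher (log2 fold change 0.50, adjusted p = 0.0116 in edgeR). COL1A1 had a value of -0.27 and was not called (adjusted p = 0.0589 in edgeR). DCN was also fitted below 0, and LUM and PDGFRB above 0, none of them called. The 4 endothelial markers summed to 41.6 to 50.4 CPM, nearly all from PECAM1 and KDR. PECAM1 was called higher (log2 fold change 0.59, adjusted p = 0.000222 in edgeR) and KDR lower (log2 fold change -0.69, adjusted p = 0.000343 in edgeR). The endothelial markers VWF and CDH5 had at most 6 counts in any library. Whether these markers have any part in the annexin values was not tested.

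Annexins are cytosolic proteins that bind acidic phospholipids when calcium rises, through a core of repeated helical domains that is shared across the family. Their N-terminal tails differ and give each member its partners, many of which are small calcium-binding proteins of the S100 and EF-hand families. Members take part in exocytosis, endocytosis, the clotting and plasminogen systems at the cell surface, and the resealing of torn plasma membrane. ANXA10 is an unusual member in which most of the calcium-binding sites of the core are not conserved, and it is best known from gastric epithelium.

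ANXA10 (ENSG00000109511) lies on the plus strand of chromosome 4, from 168092515 to 168187690 in GENCODE 29 on GRCh38. Its counts were 47 and 87 in shNC and 286 and 312 in sh812. These correspond to 1.24 and 2.75 CPM in shNC replicates 1 and 2, and to 8.15 and 8.72 CPM in sh812 replicates 1 and 2. Both sh812 libraries lay above both shNC libraries, and the shNC libraries differed from each other far more than the sh812 libraries did. The control mean was 2.00 ± 1.07 CPM (SD, n = 2), and the sh812 mean was 8.43 ± 0.404 CPM (SD, n = 2). In RNA from whole cultures, a change in the number of cells that express a gene and a change in RNA per cell cannot be told apart. The ratio of replicate 2 to replicate 1 was 2.22 in shNC and 1.07 in sh812.

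The counting error alone gave 95% exact Poisson intervals of 0.911 to 1.65 CPM and 2.20 to 3.39 CPM in shNC replicates 1 and 2, so the control libraries differed by more than counting error. The intervals were 7.23 to 9.15 CPM and 7.78 to 9.74 CPM in the sh812 libraries, and these overlapped. They cover counting error only, and they assume that each count is a separate fragment. Among genes with 10 to 49 counts in a library, between 65.6% and 67.1% of the counts were even numbers, so a count may stand for 1 read of a pair, which was not tested. With the counts divided by 2, the intervals widened to 0.790 to 1.85 CPM and 1.99 to 3.70 CPM in shNC and to 6.87 to 9.60 CPM and 7.40 to 10.2 CPM in sh812. The intervals of the shNC libraries remained apart from each other, and those of the sh812 libraries still overlapped.

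The fitted difference for ANXA10 was 2.11 on the log2 scale, a 4.30-fold higher level in sh812. Its size depended on the control library. Each sh812 library against shNC replicate 1 gave ratios of 6.58-fold and 7.04-fold, and each against shNC replicate 2 gave 2.96-fold and 3.17-fold. Leaving out shNC replicate 2 gave a fitted fold of 6.82, leaving out shNC replicate 1 gave 3.06, and it was 4.14 and 4.44 when an sh812 library was left out. The direction was the same in all 4 pairs of libraries, which follows from the groups not overlapping and is no separate result. An antisense gene, AC116634.1, overlaps the start of ANXA10 on the opposite strand, and it had 0 counts in each library.

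**Figure D1:**
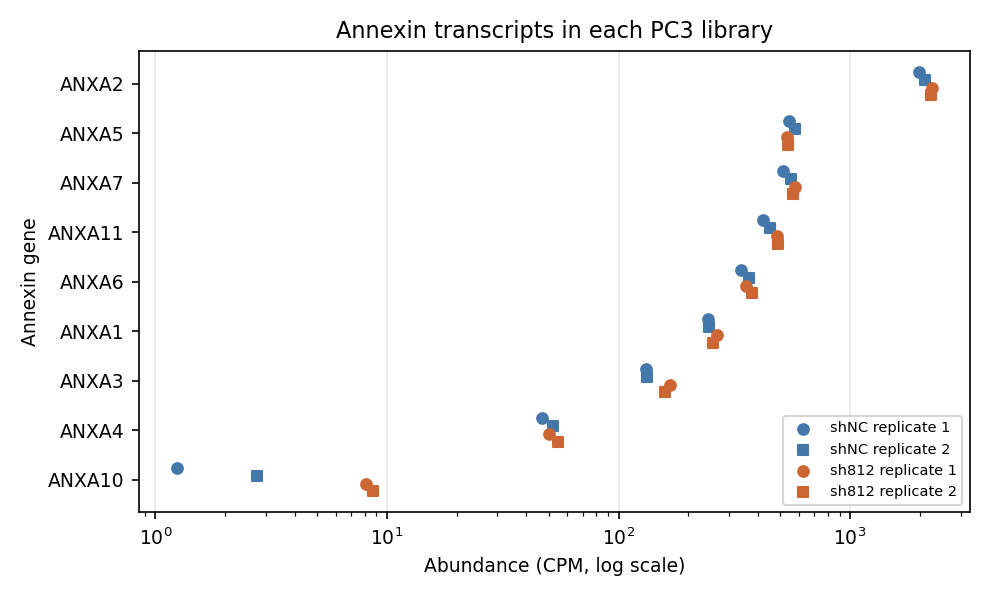
Abundance of the 9 annexin genes that passed the low-count filter, in CPM on a log axis, with 1 symbol per library (circles for replicate 1, squares for replicate 2). ANXA10 sits at the low end of the family, at 1.24 and 2.75 CPM in the shNC libraries and 8.15 and 8.72 CPM in the sh812 libraries, while the symbols of every other gene lie close together.

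The region upstream of the RefSeq transcription start also set ANXA10 apart from most of the family. RefSeq promoter windows on GRCh38.p14 were found for 9 of the 10 members, with 13 windows in all, and the 250 bases before each start site were read. The windows of ANXA10 and of ANXA3, the member that passed the test described below, are shown because they are the members whose levels differed most. Both are on the plus strand and are written 5′ to 3′, at chr4:168092287-168092536 for ANXA10 and chr4:78551520-78551769 for ANXA3. Capitals mark CG dinucleotides and the letters TATAAA.
ANXA10: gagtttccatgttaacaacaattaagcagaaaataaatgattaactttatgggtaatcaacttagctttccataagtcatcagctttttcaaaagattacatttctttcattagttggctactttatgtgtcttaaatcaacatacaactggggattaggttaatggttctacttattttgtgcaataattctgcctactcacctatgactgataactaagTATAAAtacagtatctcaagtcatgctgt
ANXA3: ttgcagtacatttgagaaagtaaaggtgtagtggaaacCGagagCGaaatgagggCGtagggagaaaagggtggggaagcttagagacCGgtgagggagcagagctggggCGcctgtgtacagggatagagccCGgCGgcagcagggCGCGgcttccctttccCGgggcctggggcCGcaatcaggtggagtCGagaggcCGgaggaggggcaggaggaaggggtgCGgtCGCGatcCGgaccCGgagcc

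The ANXA10 window held 0 CG dinucleotides and was 31.2% G or C, and it had TATAAA ending 23 bases before the RefSeq start site. The ANXA3 window held 18 CG dinucleotides, was 64.0% G or C and had no TATAAA on either strand. Over 35116 RefSeq windows of this length the median was 11 CG dinucleotides and 58.0% G or C, and 6.06% of windows had none. TATAAA, searched on both strands, was in 10.7% of them. ANXA1 was the other member with 0 CG dinucleotides, and it also had TATAAA, ending 25 bases before its RefSeq start site. ANXA2 combined TATAAA with 28 CG dinucleotides, and 1 of the 3 ANXA11 windows held TATAAA. The start sites are those of RefSeq, and GENCODE places some of them elsewhere. GENCODE starts ANXA3 at 78551519, so the ANXA3 window lies inside that gene model. The GENCODE starts of ANXA10 (168092515) and ANXA1 (73151757) fall inside their windows, so distances to the start differ between the annotations. These matches are a description of the letters and were not tested as binding sites.

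The levels of the family spanned several orders of magnitude when expressed per kilobase of the longest GENCODE transcript. In shNC, ANXA2 was the most abundant at 580 CPM per kb, followed by ANXA5 at 318, ANXA7 at 218 and ANXA6 at 136 CPM per kb. ANXA1 followed at 111, ANXA11 at 62.4, ANXA3 at 45.0 and ANXA4 at 11.2 CPM per kb. ANXA10 stood below all of these at 1.41 CPM per kb in shNC and 5.95 CPM per kb in sh812, where ANXA4 had 11.9 CPM per kb. The order of the 9 genes was the same in both groups, and neighbours in this order did not overlap between libraries of a group. The lengths are those of the longest annotated transcript, and the isoforms used in PC3 cells were not measured. ANXA8 had 4 and 0 counts in shNC and 0 and 2 counts in sh812, and it shares nearly its whole sequence with ANXA8L1, which had 0 counts in every library.

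Summed over the 10 members, annexin transcripts took 0.432% and 0.452% of all counts in shNC against 0.462% and 0.463% in sh812. ANXA10 made up 0.0293% and 0.0612% of the annexin counts in shNC and 0.173% and 0.186% in sh812. It was thus a very small part of the family's transcripts in both groups.

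Apart from ANXA10, the family differed little between the groups, and most fitted values lay slightly above 0. Of the 8 other members tested, 1 was called higher in sh812 and 0 lower at a threshold of 0.05 on the Benjamini-Hochberg adjusted p, from edgeR's quasi-likelihood fit to the whole table. That is 12.5% of the members, against a background of 10.8% of all genes tested, with 5.43% called higher and 5.42% called lower (912 and 910 genes, or 561 and 1328 with library size alone as the scaling). Their median log2 fold change stood at 0.095, against -0.0056 over all genes tested. Both sh812 libraries lay above both shNC libraries in 5 of the 8, an arrangement found in 26.2% of all genes tested. The fitted value was above 0 in 7 of the 8 and below 0 in ANXA5.

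ANXA3, a member found at high levels in neutrophils, was the called gene. It lies on the plus strand of chromosome 4, from 78551519 to 78610451, far from ANXA10 on the same chromosome arm. Its abundance was 131 and 133 CPM in the shNC libraries and 168 and 159 CPM in the sh812 libraries. The groups did not overlap, and replicates lay close together in each. The log2 fold change was 0.31 (SE 0.06), or 1.24-fold, with an adjusted p of 0.00172 in edgeR. It was no longer past the threshold without sh812 replicate 1, where the value was 0.27 with an adjusted p of 0.0998 in edgeR, and it was past it without each of the other libraries.

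ANXA2 and ANXA1 are the members best known at the cell surface. ANXA2, which forms a complex with S100A10 and binds plasminogen and its activator, had 1984 and 2111 CPM in shNC and 2257 and 2240 CPM in sh812. The groups did not overlap, but the log2 fold change of 0.14 (95% interval 0.023 to 0.25) did not pass the test (adjusted p = 0.112 in edgeR). With no low-count filter, ANXA2 passed (log2 fold change 0.13, adjusted p = 0.0274 in edgeR). ANXA1, a glucocorticoid-induced ligand of formyl peptide receptors, had 243 and 247 CPM in shNC and 267 and 255 CPM in sh812. Its log2 fold change was 0.092 (95% interval -0.028 to 0.21, adjusted p = 0.351 in edgeR). ANXA2 has processed pseudogene copies that could take some of its reads, of which ANXA2P2 had 412 to 480 counts per library against 66774 to 80175 for ANXA2.

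ANXA7 and ANXA11 carry the long N-terminal tails of the family and bind the calcium sensors sorcin and PDCD6. ANXA11, which also tethers RNA granules to lysosomes, had 419 and 451 CPM in shNC and 484 and 490 CPM in sh812. Its log2 fold change was 0.16 (95% interval 0.045 to 0.28, adjusted p = 0.0688 in edgeR), just outside the threshold. It passed in other fits, with an adjusted p of 0.0435 in limma-voom, 0.0373 in edgeR with no low-count filter and 0.00812 in edgeR with the trend on transcript length removed. ANXA7 had 513 and 558 CPM in shNC and 578 and 569 CPM in sh812, with a log2 fold change of 0.098 (95% interval -0.021 to 0.22, adjusted p = 0.310 in edgeR). Without shNC replicate 2, ANXA2, ANXA7 and ANXA11 all passed, at adjusted p-values in edgeR of 4.02e-06, 0.00287 and 4.04e-05.

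ANXA4, ANXA5 and ANXA6 had the smallest differences. ANXA5, which binds phosphatidylserine and is used to stain dying cells, had 545 and 575 CPM in shNC and 537 and 541 CPM in sh812. Its log2 fold change was -0.056 (95% interval -0.17 to 0.060, adjusted p = 0.595 in edgeR). ANXA6, whose core is a tandem duplication, had 339 and 367 CPM in shNC and 356 and 376 CPM in sh812, and the groups overlapped. Its log2 fold change was 0.050 (95% interval -0.073 to 0.17, adjusted p = 0.667 in edgeR). ANXA4, an epithelial member, had 46.7 and 52.1 CPM in shNC and 50.1 and 54.9 CPM in sh812, also overlapping, with a log2 fold change of 0.090 (95% interval -0.078 to 0.26, adjusted p = 0.548 in edgeR). ANXA4 overlaps AAK1 on the other strand, and whether the counting used strand is not given, so their reads may be mixed. The interval of ANXA4 was the widest of the 8, and none of these intervals reached 0.5 on the log2 scale.

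**Figure D2:**
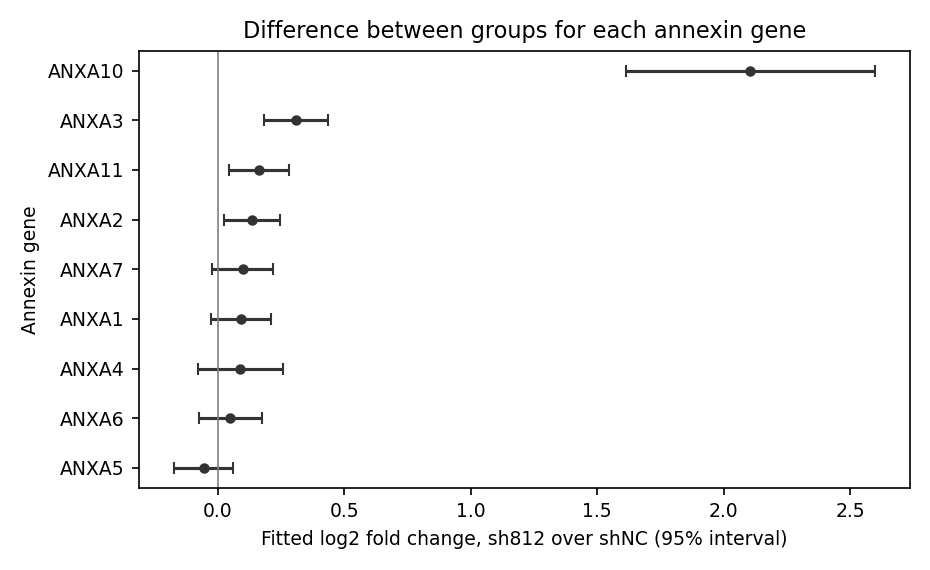
Fitted log2 fold change of sh812 over shNC for the 9 annexin genes tested, as points with 95% intervals from edgeR. ANXA10 was chosen for this difference, so its interval is not to be read as a test. The value for ANXA10 is 2.11, and those of the other 8 genes lie between -0.056 for ANXA5 and 0.31 for ANXA3.

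Set against its family, ANXA10 had a log2 fold change 2.01 above the median of the 8 other members. In the 4 pairs of an sh812 with an shNC library, the log2 ratio of ANXA10 was 2.72, 1.57, 2.82 and 1.66. The highest of the other members was ANXA3 in each pair, at 0.36, 0.34, 0.28 and 0.26 in the same order, and the lowest was ANXA5. The control libraries also differed more for ANXA10 than for the rest, since the ratio of shNC replicate 2 to replicate 1 ran from 1.01 for ANXA3 to 1.12 for ANXA4 against 2.22 for ANXA10. ANXA10 also had the fewest counts of the 9 genes.

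**Figure D3:**
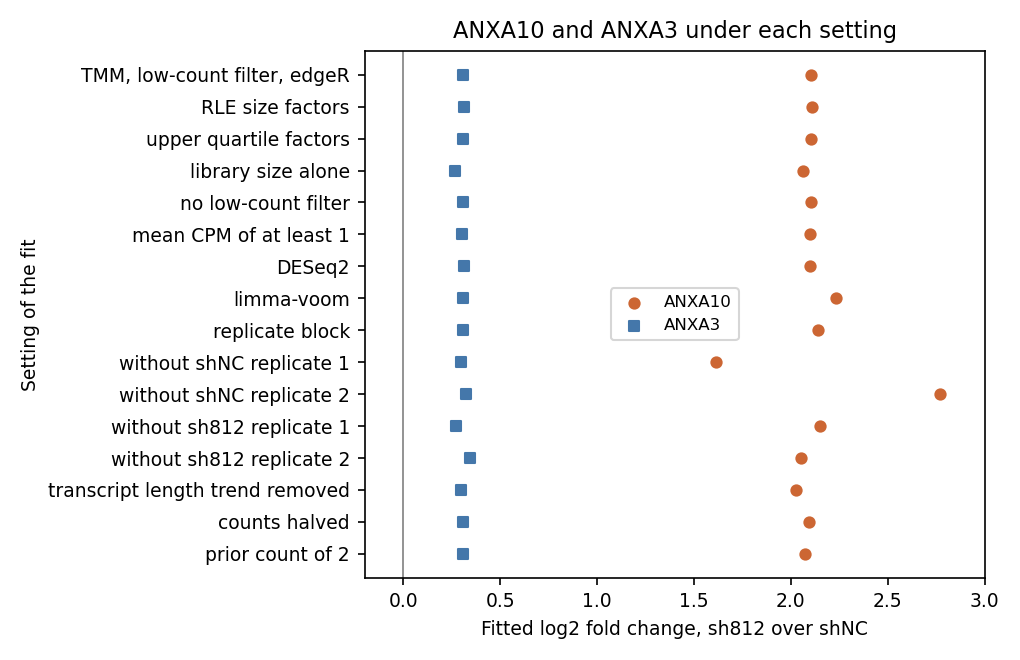
Fitted log2 fold change of ANXA10 (circles) and ANXA3 (squares) under each setting of the fit, including each library left out. ANXA10 is lowest at 1.61 when shNC replicate 1 is left out and highest at 2.77 when shNC replicate 2 is, and ANXA3 runs from 0.26 with library size alone to 0.35 without sh812 replicate 2.

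The table also held 3 other protein-coding annexins. ANXA9 had 38 and 29 counts in shNC and 52 and 51 counts in sh812, with a log2 fold change of 0.59 (95% interval -0.20 to 1.39, adjusted p = 0.364 in edgeR). ANXA13, an intestinal member, had 0 counts in both shNC libraries and 2 and 4 counts in sh812, and ANXA8L1 had 0 throughout. ANXA13 and ANXA8L1 had too few counts to test.

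The transcripts were also searched for GGACT, the sequence context in which N6-methyladenosine is most often written. In the longest GENCODE transcript, ANXA10 held 2 copies in 1417 bases, or 1.41 per kb, ANXA11 held 9 and ANXA6 held 7. ANXA3 and ANXA7 held 0. The median over 16635 tested genes with a gene model was 0.909 per kb, and 88.4% of their longest transcripts held at least 1 copy. A copy is a match of letters, and methylation was not measured.

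The tested genes nearest to ANXA10 on chromosome 4 had fitted differences between -0.49 and 0.50 on the log2 scale. DDX60, DDX60L and PALLD follow it at 28.6, 169 and 309 kb. DDX60, an interferon-induced helicase, had 34.7 and 32.0 CPM in shNC and 34.6 and 30.7 CPM in sh812, with a log2 fold change of -0.034 (adjusted p = 0.874 in edgeR). DDX60L and PALLD had values of -0.17 and 0.022 (adjusted p = 0.498 and 0.885 in edgeR). Before ANXA10 the nearest tested gene was SPOCK3, 857.7 kb away, which was lower in sh812 (log2 fold change -0.49, adjusted p = 0.0389 in edgeR). TLL1, 1989 kb away, was higher (log2 fold change 0.41, adjusted p = 0.0235 in edgeR), and LINC01179 did not pass (log2 fold change 0.50, adjusted p = 0.684 in edgeR).

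The genes whose pattern over the 4 libraries was most like that of ANXA10 were TRBC2, FA2H, ONECUT3, AC008555.6 and AL513534.2. Likeness was the Euclidean distance between log2 CPM values (prior count of 2) centred on each gene's mean. It was taken over the 13518 genes whose mean reached 1 CPM, and the distances were 0.617, 0.635, 0.823, 0.833 and 0.909. FA2H, which makes hydroxylated sphingolipids, shared the low first control library, with 1.64 and 2.78 CPM in shNC and 6.58 and 6.43 CPM in sh812. TRBC2, a T-cell receptor constant segment with a near-identical copy, had 3.45 and 4.52 CPM in shNC and 15.2 and 13.8 CPM in sh812. ONECUT3, a transcription factor gene, had 3.32 and 3.35 CPM in shNC and 14.9 and 12.7 CPM in sh812. With 4 libraries this order describes the shape of few values, and it takes in the difference for which ANXA10 was chosen. The nearest member of the family was ANXA3, at rank 1015, and the farthest was ANXA5, at rank 7369.

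Genes of annexin partners moved little, and mostly upward where they passed the test. The list held 18 genes that bind annexins or act in their pathways, of which 13 were tested, with 4 called higher and 1 called lower in sh812. That is 38.5% called against 10.8% of all genes, and the median log2 fold change was 0.15 against -0.0056. The list was chosen with earlier results of these data known, so these shares are a description. S100A10, the light chain of the ANXA2 complex, had 348 and 367 CPM in shNC and 425 and 439 CPM in sh812 (log2 fold change 0.27, SE 0.06, adjusted p = 0.00302 in edgeR). S100A11, which binds ANXA1, had 268 and 279 CPM in shNC and 323 and 316 CPM in sh812 (log2 fold change 0.23, adjusted p = 0.0121 in edgeR). S100A6, a partner of several annexins, had 766 and 949 CPM in shNC and 1033 and 1064 CPM in sh812 (log2 fold change 0.29, adjusted p = 0.00848 in edgeR). In each of these 3 genes the groups did not overlap, and the S100A6 control libraries were far apart for so abundant a gene. Both sh812 libraries lay above both shNC libraries in 6 of the 13 tested partners, against 26.2% of all genes tested. S100A6 had a log2 fold change of 0.14 without shNC replicate 1 and 0.46 without shNC replicate 2, and it did not pass in DESeq2 (adjusted p = 0.240).

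SRI, which encodes sorcin, had 78.8 and 84.3 CPM in shNC and 95.2 and 96.7 CPM in sh812, with a log2 fold change of 0.24 (adjusted p = 0.0244 in edgeR). PLAT, the tissue plasminogen activator, fell from 44.5 and 44.8 CPM in shNC to 34.2 and 38.1 CPM in sh812 (log2 fold change -0.30, SE 0.08, adjusted p = 0.0208 in edgeR). PLAU, the urokinase gene and the most abundant partner not called, had 1269 and 1282 CPM in shNC and 1245 and 1224 CPM in sh812 (log2 fold change -0.047, adjusted p = 0.653 in edgeR). The formyl peptide receptor genes FPR2 and FPR3 had 0 counts in every library, as did PLG and S100A12, and FPR1 had 2 counts in 1 library. PDCD6 (log2 fold change 0.15, adjusted p = 0.667 in edgeR) and ANXA2R, a receptor named for ANXA2 (log2 fold change 0.34, adjusted p = 0.458 in edgeR), did not pass the test.

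Over 16635 genes the log2 fold change had a Spearman correlation of -0.22 with the length of the longest transcript, which describes these libraries and comes with no test. The longest S100A11, S100A6 and S100A10 transcripts are 594, 673 and 1202 bases. With each library's trend on length removed, 1 partner was called higher and 1 lower, and over all genes tested 904 were called higher and 711 lower. S100A10 (log2 fold change 0.18, adjusted p = 0.0336 in edgeR) and PLAT (log2 fold change -0.30, adjusted p = 0.0198 in edgeR) still passed. S100A11 (log2 fold change 0.11, adjusted p = 0.184 in edgeR), S100A6 (0.18, adjusted p = 0.0701) and SRI (0.18, adjusted p = 0.0599) did not, although the values of S100A6 and SRI were as large as that of S100A10. Whether length has a part in these differences was not tested. Of the 5 called partners, PLAT alone passed without sh812 replicate 2, and only S100A10 and S100A6 passed without sh812 replicate 1.

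Genes of plasma membrane repair, in which annexins cover the torn edge, were called at close to the background. Of 23 genes, 21 were tested, with 2 called higher and 1 lower, or 14.3% against 10.8% of all genes, and a median log2 fold change of 0.035. DYSF, or dysferlin, the calcium sensor of membrane repair, rose from 37.5 and 43.1 CPM in shNC to 56.7 and 60.9 CPM in sh812 (log2 fold change 0.55, SE 0.08, adjusted p = 9.62e-05 in edgeR). CAV1, which coats caveolae, rose from 428 and 433 CPM to 549 and 563 CPM (log2 fold change 0.37, SE 0.06, adjusted p = 9.36e-05 in edgeR). SMPD1, the acid sphingomyelinase, fell from 24.8 and 24.6 CPM to 17.0 and 17.5 CPM (log2 fold change -0.52, SE 0.10, adjusted p = 0.00176 in edgeR). In all 3 genes the groups did not overlap. Both sh812 libraries lay above both shNC libraries in 7 of the 21, against 26.2% of all genes tested. CAPN2, a calpain protease and the most abundant gene of the list not called, had a log2 fold change of 0.030 (adjusted p = 0.793 in edgeR). DYSF, CAV1 and SMPD1 passed under each of 14 alternative settings, each library left out included. The count of called genes was 5 when either shNC library was left out, and the count over all genes tested was then 1845 without shNC replicate 1 and 3252 without shNC replicate 2.

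**Figure D4:**
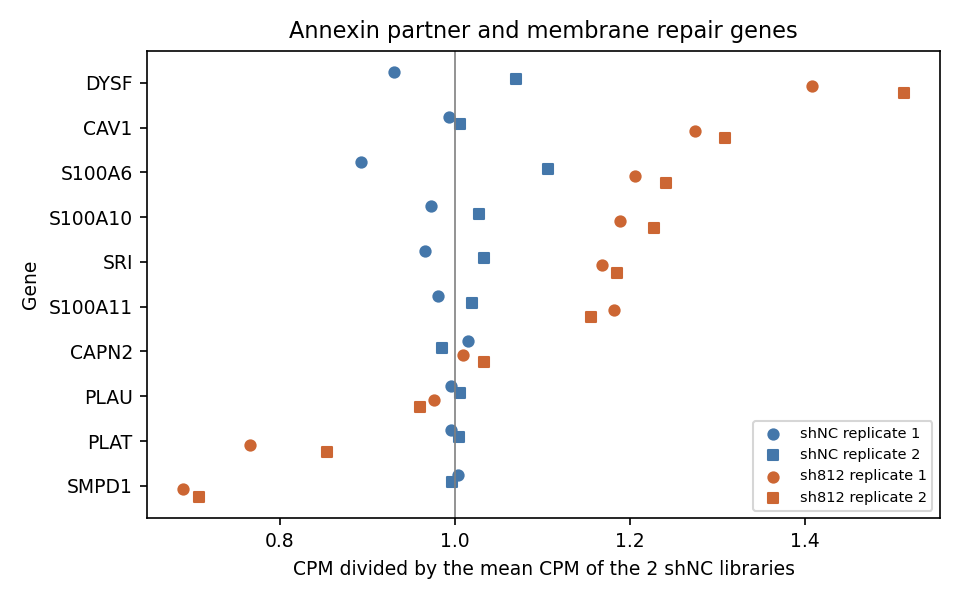
CPM of each library divided by the mean CPM of the 2 shNC libraries, for the called genes of the annexin partner and membrane repair lists and for PLAU and CAPN2, the most abundant gene of each list that was not called. DYSF, CAV1, S100A6, S100A10, SRI and S100A11 have both sh812 libraries to the right of both shNC libraries, and PLAT and SMPD1 have them to the left.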

How the data were processed

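The authors deposited 1 table of whole-number gene counts, without normalization, covering 4 poly(A) RNA libraries of PC3 cells. Per the submitters' processing notes, fastp, STAR 2.7.1a, featureCounts, DESeq2 and the build hg38 were used. Their order, the annotation and the strand setting are not given in the sources used here.

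The tests used edgeR 4.0.16 under R 4.3.3, with filterByExpr, TMM factors, glmQLFit and glmQLFTest over all 4 libraries and no covariate. Benjamini-Hochberg adjustment ran over 16802 genes, with a threshold of 0.05 for a call. Fitted fold changes used a prior count of 0.125. CPM values use TMM-adjusted library sizes. Depth was 31450648 to 37041330 counts per library. Replicates differed by more than sampling noise (chi-square per gene of 8.43 in shNC and 4.51 in sh812, where a gene's pair had 20 counts or more), so each was kept.

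The members and lists were chosen with earlier results of these data known. Named genes are METTL3, all annexins, called genes of the 2 lists with the most abundant one not called, 3 neighbours on each side of ANXA10 and the 5 genes nearest to it in pattern. Cell type markers come from a list of their own. The partners PDCD6, ANXA2R, FPR1, FPR2, FPR3, PLG and S100A12 fall outside this rule and were named after their values were seen. Positions and lengths come from GENCODE 29 and promoters from RefSeq. Genes were matched by Ensembl identifier, and 16635 of those tested had a gene model.

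Alternatives were RLE and upper quartile factors, library size alone, no filter, a mean CPM of at least 1, DESeq2 1.42.0, limma-voom (limma 3.58.1), the replicate block, each library left out, a length-trend offset (lowess span 0.3) and, for single annexin genes, a prior count of 2. Halving the counts was added after seeing the data. The edgeR fit was tested on simulated counts. Protein sequences were not used here, and the summed level of the prostate luminal markers is not reported here.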

Additional observations from a re-analysis of the deposited data

How the results depend on the processing

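Apart from the halved counts, the alternatives were planned. ANXA10, which was chosen for this difference, kept its direction in each. Its log2 fold change was 2.03 to 2.23 over the 11 that kept all libraries. Its excess over the median of the other members ran from 1.93 to 2.13 there, and from 1.56 to 2.60 with a library left out. METTL3 passed in each alternative, from -2.47 to -2.42, and from -2.52 to -2.33 with a library left out. ANXA3 passed in each that kept all libraries. The number of other annexins called was 1, but 3 with no low-count filter, 2 in limma-voom, 2 with the length trend removed, and 0 to 4 with a library left out. The number of partners called was 5, but 4 with library size alone, 4 in DESeq2, 2 with the length trend removed, and 1 to 6 with a library left out. Membrane repair genes called were 3, but 4 with the length trend removed, and 3 to 5 with a library left out. Over all genes tested 1822 were called, but 1889 with library size alone, 1934 with no low-count filter and 1489 in DESeq2. In limma-voom 1907 genes were called, and 1615 were with the length trend removed. For these counts the cause was not tested. ANXA6, which was not called, changed sign without shNC replicate 1 (-0.0056) and ran up to 0.11 with another library left out.

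With a library left out, the lone sample of a group is assumed to vary like the other group. The genes called over the whole table then ran from 587 without sh812 replicate 1 to 3252 without shNC replicate 2, against 1822. With library size alone 561 were called higher and 1328 lower, against 912 and 910. Deviations of same-numbered libraries from their group means correlated at 0.0164 over genes (Pearson), so no pairing was taken. In the fit with the replicate block, ANXA10 exceeded the other members' median by 2.04, METTL3 had -2.42, 1 other annexin, 5 partners and 3 repair genes were called, and 2001 genes were called over the table. Few counts limit ANXA8, ANXA9 and ANXA13.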
